A study of Homo sapiens with 6 samples.

Results

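The TCF/LEF genes are TCF7, LEF1, TCF7L1 and TCF7L2, 4 of the 58735 genes listed in an RNA-Seq experiment on BT549 cells. They were chosen by family membership and not by a measured value, but with earlier results of these data known. The study itself had already singled out TCF7 and LEF1 from these libraries. BT549 is an established human cell line of basal-like breast cancer, and AS1842856 is a compound known to bind the forkhead protein FOXO1 and to block its contact with DNA. The control group was 3 libraries (replicates A, B and C) of BT549 cells given DMSO, the solvent, and the treated group was 3 libraries of the same line given AS1842856, both for 48 h. The sample labels give the dose as 200 nM while the study's methods name a higher, micromolar dose, so the dose behind these libraries is uncertain. No transgene or genotype differed between the groups, and all libraries came from 1 line, so nothing here extends to other basal-like cells. The study used these libraries to look for genes under direct or indirect control of FOXO1. It also reports that RNA interference against FOXO1 lowered LEF1 and TCF7 in BT549 and a glioblastoma line. Disruption of the FOXO1 gene in the glioblastoma line lowered them too. The libraries described here compare only the compound with its solvent, so a change in them is not the effect of losing FOXO1.

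TCF/LEF proteins bind DNA through a high mobility group box and serve as the DNA-binding end of the canonical WNT pathway. When WNT ligands are absent, they hold Groucho/TLE corepressors at target genes. When beta-catenin accumulates in the nucleus, it binds the amino terminus of TCF/LEF proteins and brings in coactivators such as BCL9, Pygopus and CBP/p300. The members are not interchangeable. TCF7 (its protein is called TCF-1) and LEF1 are known from T-cell development and are themselves WNT target genes in many tissues. TCF7L1 (TCF-3) acts mostly as a repressor, for instance in embryonic stem cells, and TCF7L2 (TCF-4) is the main member of the intestinal epithelium and of colon cancer. Short forms of TCF7 and LEF1 that lack the beta-catenin binding part are made from internal promoters, and values per gene such as those used here do not separate them from the long forms.

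The RefSeq promoters of the members were searched, over the 250 bases before each start, for the TCF/LEF motif (CTTTGAT or CTTTGAA) and the forkhead motif that FOXO proteins bind (GTAAACA or ATAAACA), on both strands. These sequences are shown because AS1842856 acts on the DNA contact of a forkhead protein, and because TCF7 and LEF1 are known targets of their own family. There were 7 such windows, of which 2 belonged to TCF7, 1 to LEF1, 1 to TCF7L1 and 3 to TCF7L2. No TCF/LEF motif was found in any of them, and a forkhead motif was found in 1 window of TCF7 and 1 of TCF7L2. The only LEF1 window (chr4:108166302-108166551) lay inside the annotated gene, which begins at 108168956 on the minus strand. The bases before that outer start of LEF1 were therefore not searched. The matches are printed with 10 bases on either side, on the plus strand of GRCh38.p14, with the matched letters in capitals:
TCF7, chr5:134115580-134115606: ctttataggaGTAAACAgacccccgcc
TCF7L2, chr10:112950161-112950187: ccaccccggcTGTTTATttatgcacac
The TCF7 match begins 23 bases before its RefSeq start, on the strand of the gene. Because TCF7 transcripts begin at several places, the same bases fall in an untranslated part of an exon of 2 of the 24 annotated TCF7 transcripts. The TCF7L2 match lies on the opposite strand, 76 bases before the start, where no exon is annotated. Among all 35116 RefSeq promoter windows of this length, GTAAACA was present in 2.98% and ATAAACA in 3.77%, and CTTTGAT and CTTTGAA in 2.26% and 3.80%. A match is a string of letters and was not tested as a binding site. The first windows of TCF7, TCF7L1 and TCF7L2 were rich in G and C (70.8%, 72.0% and 68.0%), whereas that of LEF1 held 47.6%, which was above only 27.1% of all windows.

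The libraries held between 15289500 and 22981832 counts. Replicates of a group differed from each other beyond counting error (chi-square per degree of freedom 2.38 to 3.28), and each library was counted as 1 sample. Mitochondrial genes took 2.83% to 3.02% of counts with DMSO and 2.65% to 2.74% with AS1842856, a small gap without overlap whose part in the results was not tested. Genes that mark cell types were examined as a check of the line. All 8 mesenchymal genes examined (among them VIM, FN1 and ZEB1) were expressed, with a summed level of 5041 to 5179 CPM (counts scaled to a fixed library size, with TMM factors) with DMSO and 4283 to 4354 CPM with AS1842856. With AS1842856, 2 of them (FN1 and ZEB1) were higher and 6 lower at an adjusted p under 0.05 (edgeR). By the same test 56.0% of all genes tested were called in either direction. Of the luminal genes, ESR1 and CDH1 had 1 count each over all 6 libraries, PGR had 7 and EPCAM 16, FOXA1 and ERBB3 were at most 1.82 CPM in any library, and GATA3, KRT8 and KRT18 were expressed. The summed level of the 9 luminal genes was 125.9 to 129 CPM with DMSO and 65.5 to 74.8 CPM with AS1842856. KRT8 and KRT18, keratins of simple epithelium, fell with treatment. KRT8 went from 40.9 ± 1.79 to 4.15 ± 0.301 CPM (log2 fold change -3.31, adjusted p = 2.14e-88, edgeR). KRT18 went from 33.9 ± 3.47 to 3.45 ± 0.0744 CPM (-3.30, adjusted p = 2.31e-80, edgeR). GATA3 was higher, going from 50.9 ± 2.47 to 61.7 ± 4.23 CPM (0.28, adjusted p = 3.21e-06, edgeR). The part of these shifts in the results was not tested. TCF7 and LEF1 are also T-cell genes, so 16 T-cell genes were examined. CD3D, CD3E, CD3G, CD2, CD8B, LCK, TRAC, TRBC1 and TRBC2 had no count in any library, which allows at most 3 counts per library. The summed level of the T-cell genes was 81.7 to 92.3 CPM with DMSO and 119.1 to 128.0 CPM with AS1842856. Nearly all of it was IL7R, at 84.0 ± 5.54 and 119 ± 4.10 CPM (SD, n = 3). PTPRC, the general leukocyte gene, was at 1.15 ± 0.433 and 3.16 ± 0.480 CPM. These 2 were the only T-cell genes with enough counts to be tested, and both were called higher. The log2 fold change was 0.51 for IL7R (adjusted p = 1.04e-22, edgeR) and 1.48 for PTPRC (adjusted p = 4.99e-07). CD7 had 34 counts over all 6 libraries, and ZAP70, CD4, CD5 and CD8A had at most 6 each. Since RNA was taken from whole cultures, fewer cells with a given mRNA and less of it per cell cannot be told apart.

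The 4 TCF/LEF genes responded in 3 different ways. TCF7 and LEF1 rose with AS1842856, by 26.6 times and 17.0 times. TCF7L1 fell by 31.2%, and TCF7L2 stayed within the spread of its replicates. All 4 had enough counts to be tested, and 3 of 4 passed an adjusted p of 0.05, 2 higher and 1 lower (edgeR's quasi-likelihood test, Benjamini-Hochberg adjustment over 14338 genes). By the same test 56.0% of all genes were called, 27.6% higher and 28.4% lower, so being called is common in these libraries and the size of a change tells more than the call. The median log2 fold change of all genes tested was 0.00302.

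TCF7 (ENSG00000081059, chromosome 5 from 134114711 to 134151865, plus strand, GRCh38) had 427, 275 and 432 counts in the DMSO libraries A, B and C and 8836, 12227 and 9905 in the AS1842856 libraries. Scaled to library size, this was 19.4, 17.9 and 23.2 CPM with DMSO and 530.2, 535 and 555 CPM with AS1842856. The lowest treated library was far above the highest control library, and the 3 treated libraries lay close to each other. The log2 fold change was 4.74 (SE 0.05, 95% interval 4.64 to 4.83, adjusted p = 5.62e-150, edgeR), which is a rise of 24.9 to 28.5 times. With DMSO C left out the log2 fold change was 4.84, above this interval. TCF7 was 26th of 14338 genes by log2 fold change. In deposited FPKM (fragments per kilobase of exons, scaled to library size), TCF7 went from 2.0 ± 0.273 to 53.4 ± 1.25 (SD, n = 3). With DMSO it stood above 61.6% of the 25015 genes listed, and with AS1842856 above 96.7%. The coefficient of variation between replicates was 13.7% with DMSO and 2.35% with AS1842856.

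LEF1 (ENSG00000138795, chromosome 4 from 108047545 to 108168956, minus strand) was barely detected in cells given DMSO, with 35, 36 and 41 counts. The treated libraries held 580, 837 and 550 counts. This was 1.59, 2.34 and 2.21 CPM with DMSO and 34.8, 36.7 and 30.8 CPM with AS1842856. The groups were again far apart, and the low control counts made the fold less precise than that of TCF7. The log2 fold change was 4.08 (SE 0.13, 95% interval 3.84 to 4.33, adjusted p = 5.01e-89, edgeR), a rise of 14.3 to 20.1 times. This SE is narrower than counting error on 35 to 41 control counts allows, so the interval overstates the precision. LEF1 was 44th of 14338 genes. It went from 0.380 ± 0.0736 to 6.32 ± 0.555 FPKM (SD, n = 3), and from a level above 44.0% of listed genes to one above 75.9%. The treated level of LEF1 stayed well under that of TCF7 in every library.

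TCF7L1 (ENSG00000152284, chromosome 2 from 85133410 to 85310388, plus strand), the repressor-type member, went the other way. It had 242, 135 and 239 counts with DMSO and 115, 178 and 140 with AS1842856. Scaled to library size, this was 11.0, 8.79 and 12.9 CPM with DMSO and 6.90, 7.80 and 7.85 CPM with AS1842856. The groups did not overlap, but the lowest control library, DMSO B, lay close to the highest treated one. The log2 fold change was -0.54 (SE 0.13, 95% interval -0.79 to -0.29, adjusted p = 7.09e-05, edgeR), a decrease of between 18.4% and 42.0%. The call was lost in limma on log2(FPKM + 1) without a filter (-0.35, adjusted p = 0.0713). It was 12273rd of 14338 genes from the highest log2 fold change. Gaps between groups were common, since 59.9% of all genes tested did not overlap in CPM either, nor did 39.2% of the genes listed in FPKM.

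TCF7L2 (ENSG00000148737, chromosome 10 from 112950250 to 113167678, plus strand) had 438, 293 and 418 counts with DMSO and 359, 457 and 344 with AS1842856. This was 19.9, 19.1 and 22.5 CPM with DMSO and 21.5, 20.0 and 19.3 CPM with AS1842856. The treated libraries all lay within the range of the control libraries. The log2 fold change was -0.02 (SE 0.09, 95% interval -0.19 to 0.15, adjusted p = 0.868, edgeR), so changes from -12.5% to 11.2% remain possible. Its sign rested on single libraries, since it was 0.05 without DMSO C and 0.01 without AS1842856 C.

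**Figure D1:**
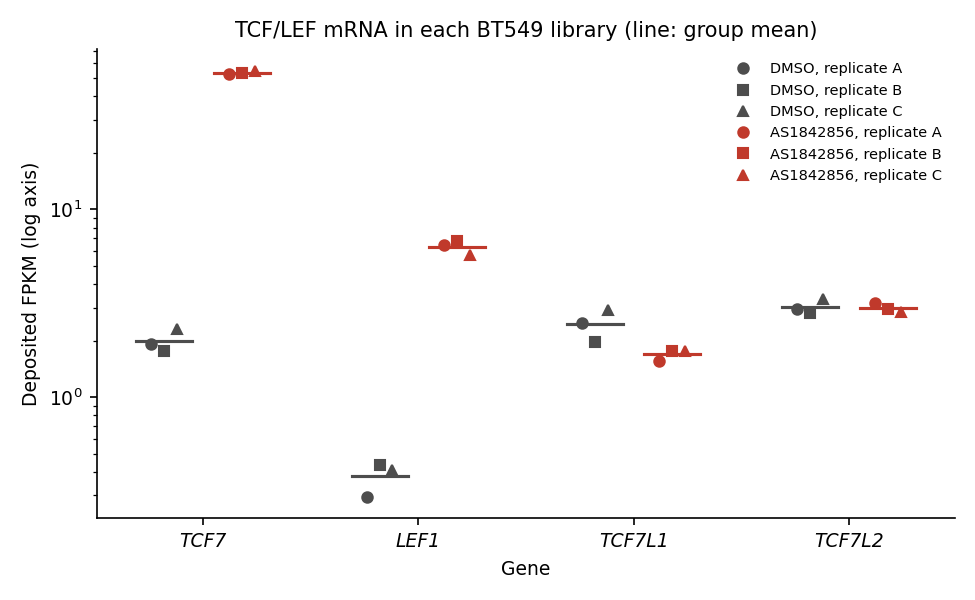
Deposited FPKM (log axis) of the 4 TCF/LEF genes in each of the 6 BT549 libraries, with DMSO in grey, AS1842856 in red, marker shapes for replicates A, B and C, and lines at the group means. TCF7 and LEF1 lie far higher with AS1842856 (means 53.4 and 6.32) than with DMSO (2.0 and 0.380), TCF7L1 lies slightly lower, and the TCF7L2 groups overlap.

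The responses of members were compared through the log2 ratio of 2 members within each library, which does not depend on library size. There were 6 pairs. In each of them the 3 DMSO ratios and the 3 AS1842856 ratios did not overlap, which gave p = 0.1 by an exact two-sided permutation test, the smallest that 3 against 3 allows, and 0.1 after adjustment over the 6 pairs. The test could not have reached 0.05. Gaps between groups were common for single genes too (59.9% of all genes tested, in CPM), and the share among other gene pairs was not computed. As the 6 pairs come from only 4 genes, they are not separate results. The log2 fold change of TCF7 exceeded that of TCF7L2 by 4.76 (SE 0.08) and that of TCF7L1 by 5.27 (SE 0.08). LEF1 exceeded TCF7L2 by 4.09 (SE 0.19) and TCF7L1 by 4.59 (SE 0.28). TCF7L1 was lower than TCF7L2 by a log2 difference of -0.51 (SE 0.14). The smallest gap apart from that pair was between the genes that rose. The log2 ratio of TCF7 to LEF1 was 2.70, 2.02 and 2.49 with DMSO and 3.02, 2.96 and 3.26 with AS1842856, so TCF7 rose by 0.68 (SE 0.22) more than LEF1 on the log2 scale. The control ratios rested on only 35 to 41 counts of LEF1 per library.

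**Figure D2:**
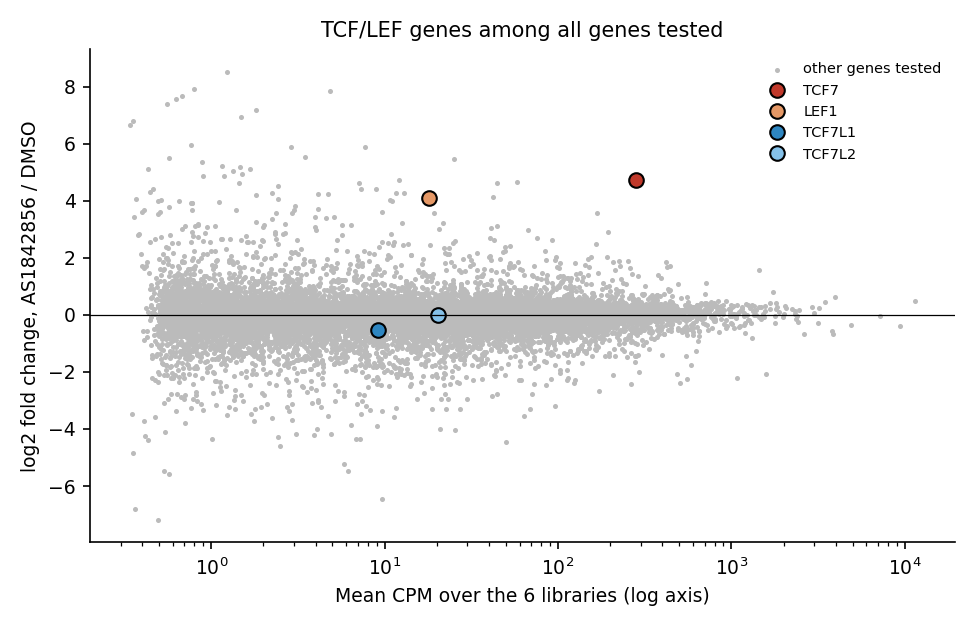
Log2 fold change (AS1842856 over DMSO) against mean CPM over the 6 libraries (log axis) for the 14338 genes tested, with the 4 TCF/LEF genes as large points. TCF7 (log2 fold change 4.74) and LEF1 (4.08) stand above nearly all genes, at ranks 26 and 44, while TCF7L1 (-0.54) and TCF7L2 (-0.02) lie within the main cloud.

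Because FPKM divides by gene length, it also allowed the levels of different members to be compared. In DMSO-treated cells the order of mean FPKM was TCF7L2 (3.03 ± 0.264), TCF7L1 (2.45 ± 0.462), TCF7 (2.0 ± 0.273) and LEF1 (0.380 ± 0.0736; SD, n = 3). The ranges of TCF7L2 and TCF7L1 overlapped, as did those of TCF7L1 and TCF7, although each of the 3 libraries on its own gave the same order. LEF1 was below the rest in every library. With AS1842856 the order was TCF7 (53.4 ± 1.25), LEF1 (6.32 ± 0.555), TCF7L2 (2.99 ± 0.173) and TCF7L1 (1.69 ± 0.118), and no neighbours overlapped. The length used matters for the control order. The deposited FPKM imply a length for TCF7 of 10114 bases, close to the 10063 bases of all its annotated exons together, whereas its longest transcript has 5340. Per kilobase of the longest transcript, a scale added after the data were seen, TCF7 with DMSO (3.78 ± 0.515 CPM per kilobase) lay above TCF7L1 (3.67 ± 0.687), with overlap, and the treated order was the same as in FPKM.

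The family as a whole became larger and of another make-up. The summed FPKM of the 4 genes was 7.65, 6.98 and 8.92 with DMSO and 63.6, 64.4 and 65.1 with AS1842856. The means were 7.85 ± 0.985 and 64.4 ± 0.745, which is 8.20 times as high (exact permutation test, two-sided p = 0.1, the smallest possible). With DMSO the sum was spread over TCF7L2 (38.7% ± 1.51), TCF7L1 (31.1% ± 2.42) and TCF7 (25.4% ± 0.317), with LEF1 at 4.89% ± 1.20 (SD, n = 3). With AS1842856, TCF7 alone made up 82.9% ± 1.10 and LEF1 9.83% ± 0.935, while TCF7L2 and TCF7L1 were left with 4.65% ± 0.323 and 2.63% ± 0.158. Their shares fell much more than their own mean FPKM, which were 2.45 and 1.69 for TCF7L1 and 3.03 and 2.99 for TCF7L2. The ratio of TCF7 plus LEF1 to TCF7L1 plus TCF7L2 was 0.434 ± 0.0255 with DMSO and 12.7 ± 0.355 with AS1842856. On the log2 scale this ratio was -1.29, -1.12 and -1.20 with DMSO and 3.64, 3.66 and 3.71 with AS1842856, a difference of 4.88 (exact permutation test, two-sided p = 0.1). The genes of this ratio were grouped with earlier results of these data known. It therefore describes size only, and its p-value is no evidence of direction. On the longest transcript, the sum was 9.11 times as high and TCF7 took 29.1% ± 0.369 with DMSO and 85.4% ± 0.963 with AS1842856.

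**Figure D3:**
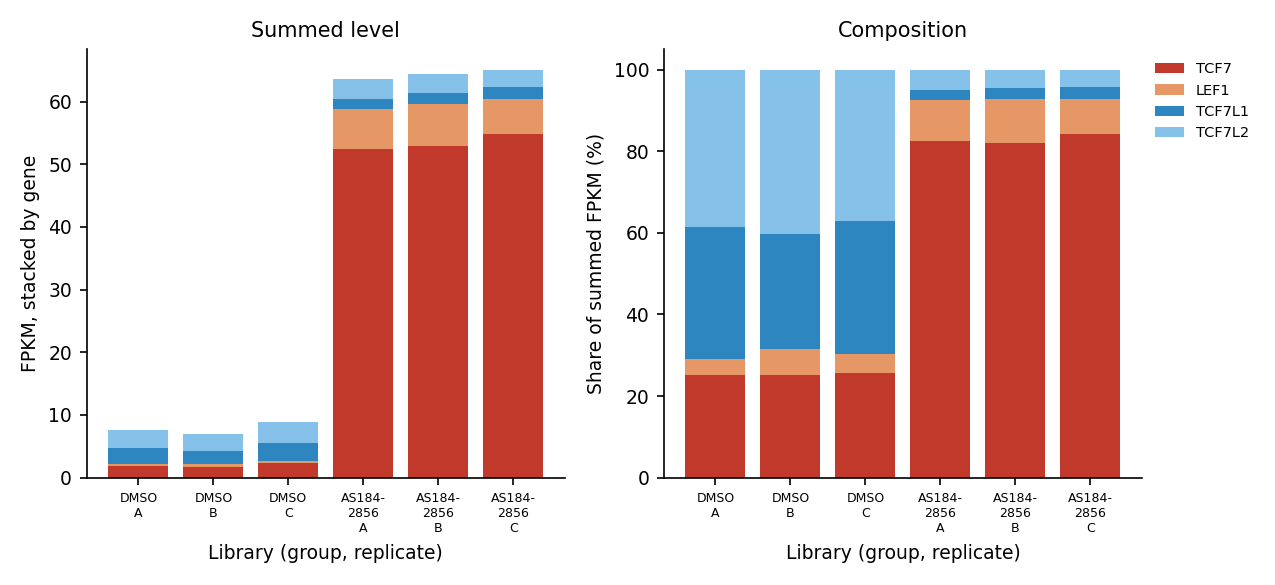
Summed FPKM of the 4 TCF/LEF genes per library, stacked by gene (left), and the share of each gene in that sum in percent (right). The sum lies between 6.98 and 8.92 with DMSO and between 63.6 and 65.1 with AS1842856, and the mean share of TCF7 is 25.4% and 82.9%.

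Genes that lie over the members were examined, as the use of strand in counting is not given in the sources used here. SKP1, a subunit of SCF ubiquitin ligases, lies on the opposite strand of TCF7 and shares 210 exon bases with it. It had 151, 165 and 155 CPM with DMSO and 149, 166 and 164 CPM with AS1842856, a log2 fold change of 0.03 (SE 0.04, adjusted p = 0.587, edgeR). SKP1 held 665% to 920% as many counts as TCF7 in the DMSO libraries and 28.0% to 30.9% in the AS1842856 libraries. Whether reads of SKP1 were counted on TCF7 was not tested. LEF1-AS1, an antisense RNA that shares 279 exon bases with LEF1, had 0, 0 and 1 counts with DMSO and 6, 19 and 4 with AS1842856, too few to be tested and 1.44% of the LEF1 counts over all libraries. The genes over TCF7L1 and TCF7L2 had at most 2 counts in all (TCF7L1-IT1 and AL158212.2). The E-protein gene TCF4 shares only its name with TCF-4, the protein of TCF7L2. TCF4 had 53.3 ± 0.700 CPM with DMSO and 91.5 ± 3.15 CPM with AS1842856 (log2 fold change 0.78, SE 0.05, adjusted p = 2.27e-36, edgeR).

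Among the proteins that work with TCF/LEF factors, no common direction was seen. Of 14 coactivator genes, all tested, 5 were higher, 5 lower and 4 not called, with a median log2 fold change of 0.08. The share called was 71.4%, beside 56.0% of all genes. BCL9, which links beta-catenin to Pygopus, had the largest change. It went from 40.3 ± 2.38 to 104 ± 4.53 CPM (log2 fold change 1.36, SE 0.05, adjusted p = 1.68e-70, edgeR). CTNNB1, which encodes beta-catenin, was at 342 ± 8.02 CPM with DMSO and 293 ± 4.76 CPM with AS1842856 (log2 fold change -0.22, SE 0.04, adjusted p = 6.49e-09), so its mRNA was slightly lower while TCF7 and LEF1 rose. This is mRNA only, and the study reports more total and active beta-catenin protein in BT549 cells given AS1842856. JUP, which encodes the related plakoglobin, had a log2 fold change of -0.27. TBL1X and TBL1XR1, exchange factors for corepressors that also bind beta-catenin, fell by 0.65 and 0.42 on the log2 scale. The kinase gene TNIK (0.62), the Mediator gene MED12 (0.21), the acetyltransferase gene CREBBP (0.14) and the chromatin remodeller gene SMARCA4 (0.11) were higher, and BCL9L, the paralogue of BCL9, was slightly lower (-0.12). PYGO1, PYGO2, EP300 and CDC73 were not called, with log2 fold changes between -0.07 and 0.13. Several of these calls were small and depended on single libraries or on the test. JUP lost its call without AS1842856 B (adjusted p = 0.099) or DMSO A (0.106, edgeR), BCL9L without AS1842856 B, DMSO A or DMSO C (0.0673 to 0.132), CREBBP without DMSO C (0.0764) and TNIK without AS1842856 A (0.0514), and EP300 was called without DMSO A (0.0179). DESeq2 did not call JUP (adjusted p = 0.12) or BCL9L (0.0727). BCL9L was not called in any of the 3 limma fits on FPKM either (adjusted p = 0.137 to 0.212), and the limma fit without a filter also lost JUP, CREBBP and TNIK (0.0638 to 0.0833).

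The corepressors and inhibitors were just as mixed. Of 15 genes, all tested, 4 were higher, 6 lower and 5 not called, with a median log2 fold change of -0.10. The share called was 66.7%, near the 56.0% of all genes. The Groucho/TLE corepressors, which bind TCF/LEF proteins directly, moved apart. TLE1 went from 38.1 ± 1.23 to 65.0 ± 3.16 CPM (log2 fold change 0.77, SE 0.06, adjusted p = 1.66e-29, edgeR), while TLE2 went from 4.06 ± 0.346 to 2.44 ± 0.792 CPM (-0.73, SE 0.21, adjusted p = 0.00157). TLE3 was higher (0.31), the short family member AES lower (-0.14), and TLE4 was not called (-0.10). The deacetylase genes HDAC2 and HDAC1 had small increases (0.22 and 0.17). HBP1, a repressor that blocks DNA binding by TCF/LEF proteins, had the largest decrease, from 18.5 ± 4.02 to 10.3 ± 0.462 CPM (-0.85, SE 0.11, adjusted p = 2.67e-12). CTBP2, CBY1 and CTBP1 fell by 0.61, 0.31 and 0.16 on the log2 scale. CTNNBIP1, NLK, CHD8 and HIC1 were not called. TLE3 lost its call without AS1842856 A, DMSO B or DMSO C (adjusted p = 0.089 to 0.222, edgeR) and CBY1 without DMSO B (0.065), and TLE4 was called without AS1842856 A (0.0435) or DMSO C (0.047). TLE3 was also not called by DESeq2 (adjusted p = 0.152), by any of the 3 limma fits (0.255 to 0.279) or by edgeR without a filter (0.0856). CBY1 was not called by DESeq2 (0.0787), nor TLE2 by limma on log2(FPKM + 0.1) (0.056) or on log2(FPKM + 1) without a filter (0.0819).

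The target genes of beta-catenin and TCF moved much more than the partners. Of 23 targets, 12 had too few counts to be tested, among them LGR5, RNF43, ASCL2, EPHB2 and CDX2, which are known from the intestine. All 11 tested genes were called, 9 higher and 2 lower, beside 56.0% of all genes, and their median log2 fold change was 1.83 against 0.00302 for all genes. NKD1, SP5 and NOTUM passed the filter on low counts only through the AS1842856 libraries, so they could be tested only if they were higher there. The other 8 tested targets comprised 6 higher and 2 lower genes, and their median log2 fold change was 1.74. Several of these genes are also among those the study drew from these libraries, so the list is not independent evidence of direction.

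The tested targets differed widely in size of change. AXIN2, a scaffold of the beta-catenin destruction complex, had 74, 37 and 80 counts with DMSO and 1387, 1944 and 1554 with AS1842856 (log2 fold change 4.64, SE 0.09, adjusted p = 1.3e-129, edgeR). NKD1, which antagonises Dishevelled, had 6, 2 and 6 counts with DMSO and 258, 318 and 284 with AS1842856 (5.87, SE 0.23). In both genes each treated library was far above every control library. ZNRF3, a ubiquitin ligase that removes WNT receptors, went from 23.2 ± 2.01 to 82.4 ± 3.59 CPM (1.83, SE 0.06). NOTUM, a secreted WNT deacylase, had only 10, 3 and 9 counts with DMSO and 76, 101 and 59 with AS1842856 (3.37, SE 0.32). The SEs of AXIN2, NKD1 and NOTUM are narrower than counting error on their few DMSO counts allows. The receptor gene TNFRSF19 had a log2 fold change of 3.56 and the transcription factor gene SP5 one of 3.13. BMP4 (1.81), CCND1 (1.68), which encodes cyclin D1, and PPARD (0.76) were also higher. The exceptions were MYC, at 184 ± 10.8 CPM with DMSO and 73.4 ± 0.442 CPM with AS1842856 (-1.33, SE 0.04, adjusted p = 1.47e-84), and the secreted WNT antagonist DKK1, at 79.2 ± 7.78 and 36.3 ± 2.93 CPM (-1.13, SE 0.06, adjusted p = 4.54e-40). Neither overlapped between groups, which also held for 59.9% of all genes tested in CPM. The tested targets thus did not share 1 direction.

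**Figure D4:**
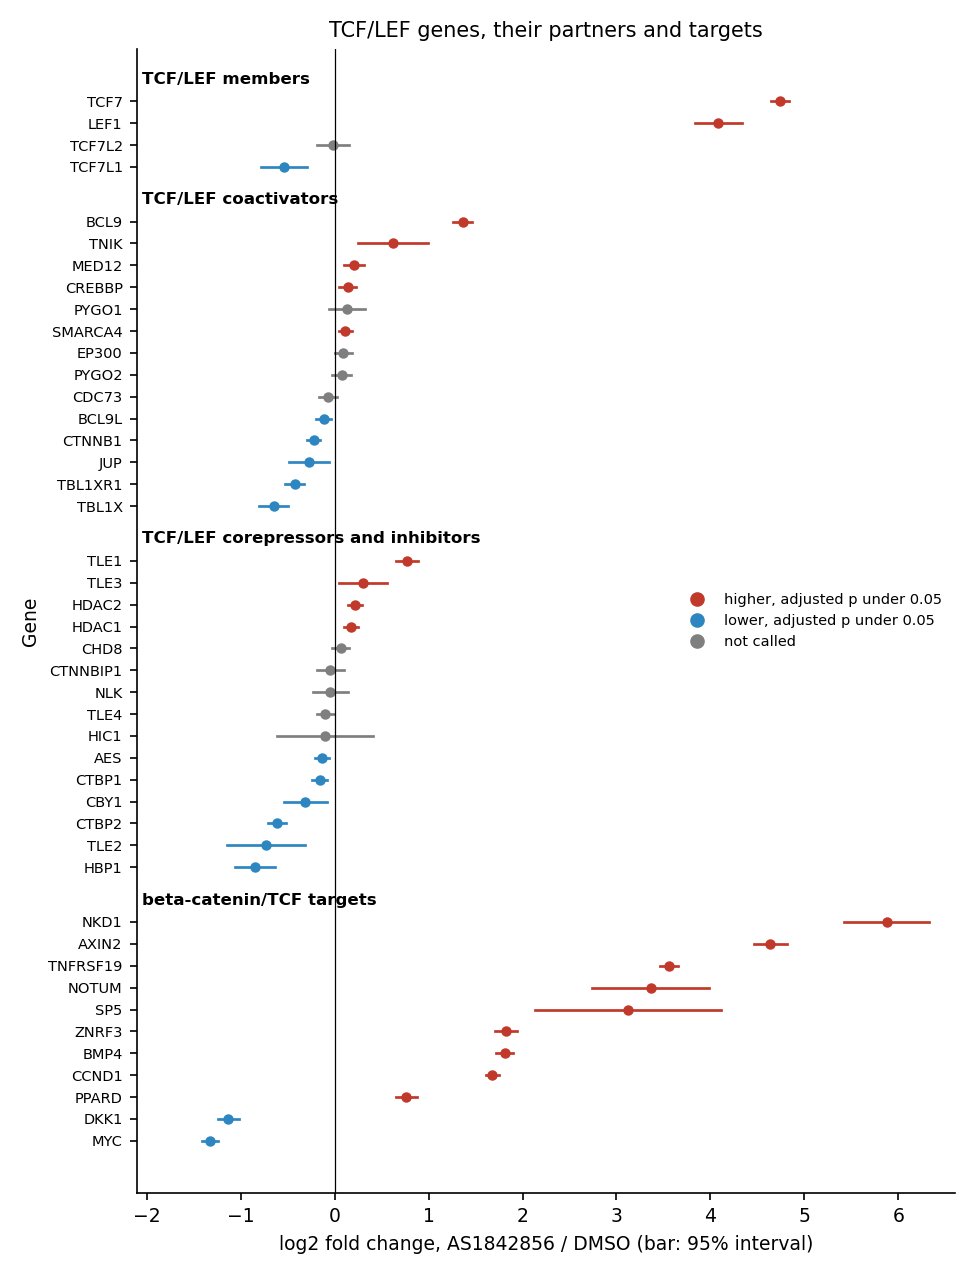
Log2 fold change (AS1842856 over DMSO, points) with 95% intervals (bars) of the TCF/LEF genes, their coactivators, their corepressors and inhibitors, and beta-catenin/TCF targets, coloured by call at an adjusted p of 0.05 (edgeR). Partners lie between -0.85 (HBP1) and 1.36 (BCL9) on both sides of 0, while targets reach from -1.33 (MYC) to 5.87 (NKD1). The intervals of large increases from few control counts are too narrow.

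Genes with a profile like that of each member were found by the root mean square difference of centred log2(CPM + 0.5) over the 6 libraries, among 13023 genes with a mean of at least 1 CPM. As the libraries fall into 2 groups, this likeness mostly reflects the size of the change with AS1842856. Closest to TCF7 were KANK4 (difference 0.115), AXIN2 (0.154) and NKD1 (0.174). NKD1 reached a mean of 1 CPM only through the AS1842856 libraries, and with 0.5 added its change is understated. Pearson's r with TCF7 was over 0.99 for 529 genes, which shows how little a correlation separates genes in this design. Closest to LEF1 were ITPKA (0.157), ADAMTS14 (0.157) and TNFRSF19 (0.193), and 441 genes had an r over 0.99. The 0.5 also understates the changes of LEF1 and ITPKA, at means of 2.05 and 1.16 CPM with DMSO. TCF7L1 was nearest to TMEM200B (0.0347), FAM222A (0.0401) and DGLUCY (0.0732), with 5 genes over that r. TCF7L2 was nearest to POLR3B (0.0212), KIF21A (0.0223) and HES1 (0.0243), and no gene had an r over 0.99 with it.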

How the data were processed

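RNA-Seq libraries of BT549 cells, 3 with DMSO and 3 with AS1842856, were grouped by the treatment label, and replicate letters were taken from the sample titles. STAR was the authors' aligner, and the deposited counts per gene are raw. The FPKM values deposited beside them, for 25015 genes, are counts relative to library size and gene length. CASAVA was used for base calling. The submitters' processing notes also name Bowtie 0.12.2, with no role, and GRCh38. The counting tool and the use of strand are not given in the sources used here. All 58735 identifiers matched GENCODE 29, which gave symbols and positions. Promoter sequences were from RefSeq (GRCh38.p14).

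The count test was that of edgeR 4.0.16 (R 4.3.3). After filterByExpr (minimum count 10, minimum total 15) and TMM scaling, the groups were compared by robust glmQLFit and glmQLFTest without a block, with Benjamini-Hochberg adjustment and a threshold of 0.05. TMM factors were 0.995 to 1.01 and the common biological coefficient of variation was 0.0374. Standard errors of the edgeR fold changes were worked back from the F statistic, and 95% intervals from the t distribution. For large changes from few control counts, values worked back in this way are too narrow and can fall below counting error. The standard errors and intervals also rest on a spread partly shared across genes, so they can be narrower than the shift from leaving out 1 library. Sums and ratios of FPKM were compared by exact two-sided permutation tests, which cannot go below 0.1 here. Limits from 3 counts cover counting error only. The study calls the replicates biological, but whether they were separate cultures on separate days is not given, so p-values measure the spread between these libraries.

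The members and lists were chosen with earlier results of these data known. The named genes were the 4 members, genes annotated over them, up to 4 called genes of each direction per list together with genes not called or not tested, CTNNB1, and the 3 nearest profiles of each member. SMARCA4, BCL9L, AES, CTBP1, SP5, BMP4, ZNRF3, CCND1, PPARD and TCF4 were named after their values were seen. The following were tried in place of these settings: the replicate letter as a block, leaving out any 1 library, DESeq2 1.42.0, scaling by its size factors or by totals only, keeping every gene or those averaging 50 counts or more, and limma 3.58.1 (trend) on FPKM. The limma fits used log2 values with a pseudocount of 1 or 0.1 for genes averaging at least 0.5 FPKM, or of 1 for every gene. Sums were also rebuilt from TMM-scaled counts, and the longest transcript as length was added after the data were seen.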

Additional observations from a re-analysis of the deposited data

How the results depend on the processing

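TCF7 and LEF1 were higher, and called, under every alternative run, with log2 fold changes of 4.19 to 4.74 and 2.41 to 4.09 with all libraries, and 4.66 to 4.84 and 3.91 to 4.18 with 1 library left out. The lowest values came from log2(FPKM + 1), whose pseudocount understates the change of low genes. TCF7L1 lost its call only in limma on log2(FPKM + 1) without a filter (-0.35, adjusted p = 0.0713), where 6 instead of 10 coactivators were called. It ranged from -0.66 to -0.41 with 1 library left out. TCF7L2 was not called under any alternative. Its log2 fold change was between -0.03 and -0.01 with all libraries and from -0.0679 to 0.046 with 1 library left out, turning positive without AS1842856 C (0.0115) and without DMSO C (0.046). Per kilobase of the longest transcript, chosen after the data were seen, the summed level differed between groups by 105.4 in place of 56.5 FPKM, as the shorter length raises every level. On the length of all exons, the same TMM-scaled counts gave 56.9. The number of genes called was between 6523 and 8030 with all libraries and between 7427 and 7678 with 1 left out.

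Same-lettered libraries did not deviate together (r = 0.03 for A, -0.01 for B and -0.01 for C), so the letters were not read as pairs. With the letter as a replicate block, 7862 genes were called, and the log2 fold changes were 4.74 for TCF7, 4.07 for LEF1, -0.53 for TCF7L1 and -0.01 for TCF7L2. The block changed none of the calls of the 4 genes. The low control counts of LEF1 (35 to 41) limit the precision of its fold change more than its printed interval shows. Isoforms cannot be seen in values per gene.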
